A study of Mus musculus with 6 samples.

Results

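The surface marker genes of HSCs compared here are 10 genes whose proteins are used to divide LSK cells (mouse BM cells without lineage markers and with Sca1 and c-Kit) into stem cells and multipotent progenitors. They were taken by gene name from the deposited table, which lists 54532 genes, and each name matched 1 row: Ly6a, Slamf1, Cd48, Cd34, Procr, Thy1, Esam, Cd27, Eng and Tek. RNA-seq had been run on sorted LSK cells to ask what the loss of Myh9, the heavy chain of non-muscle myosin IIA, changes in HSPCs. CTRL samples came from Myh9fl/fl;no cre littermates and cKO samples from Myh9fl/fl;Mx1-cre mice, all C57BL/6, with 3 libraries in each group. All mice of both groups carried the floxed Myh9 alleles and were given poly I:C, 5 mg/kg in 2 doses according to the sample labels, and LSK cells were sorted on day 4, counted from the start of the injections. The mice were genotyped at 4 to 5 weeks of age. Cre was under the interferon-responsive Mx1 promoter, which is also active outside the blood system. For each library 100000 cells were sorted, and how many mice each cell set came from is not given in the sources used here, so that the p-values measure the spread between these libraries, which may be in part technical.

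Surface proteins serve as handles for sorting because stem cells and their progeny carry them in different combinations. HSCs in mouse BM are enriched among LSK cells that carry CD150 (Slamf1), EPCR (Procr), ESAM, endoglin (Eng) and TIE2 (Tek) and low amounts of THY1, and that lack CD48, CD34 and, in the most quiescent cells, CD27. Multipotent progenitors gain CD48, CD34 and CD27 as they leave the stem cell state.

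Each library held 17571544 to 19894562 reads on genes, recovered from the gene lengths and the FPKM values, which express reads relative to gene length and library depth. Libraries of the same group correlated across genes at 0.991 to 0.993 and libraries of different groups at 0.974 to 0.977 (Pearson's r of log2(FPKM + 1)). Myh9 itself was measured over the whole gene, so the excised part was not seen separately. It was at 23.0, 22.6 and 22.0 FPKM in CTRL and 18.4, 20.0 and 17.7 FPKM in cKO, and fell by 0.26 on the log2 scale (limma, adjusted p = 0.00642). This call was lost once trends with gene length and GC content were taken out of every library (adjusted p = 0.135). Kit, whose protein was part of the sort, fell by 0.14 on the log2 scale (adjusted p = 0.0105), and its call was lost in the same way (adjusted p = 0.338).

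Thy1, Procr and Esam, all at low levels in LSK cells, rose in cKO, while the abundant markers Cd48, Ly6a, Cd34, Cd27 and Eng had cKO means that differed from CTRL by -6.19% (Ly6a) to 3.47% (Cd34) and were not called. Of the 10 genes, 9 averaged 1 FPKM or more across all 6 libraries and were tested. A gene was called where limma on log2(FPKM + 1), adjusted by Benjamini-Hochberg over all 11552 genes tested, gave a p under 0.05. Of the 9, 3 were called higher in cKO, 0 lower and 6 in neither direction. At the same threshold, 19.9% of all genes tested were called higher, 20.6% lower and 40.5% in either direction, so the number of calls among these genes was not itself out of the ordinary. The median log2 fold change was 0.048 over the 9 genes and -0.0096 over all genes tested. RNA from a bulk sort cannot separate a change in the number of cells of a type from a change in the RNA of each cell. Every cKO library lay above every CTRL library for Thy1, Procr and Esam, an order seen in 25.5% of all genes tested. The plot of levels by library shows each value.

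**Figure D1:**
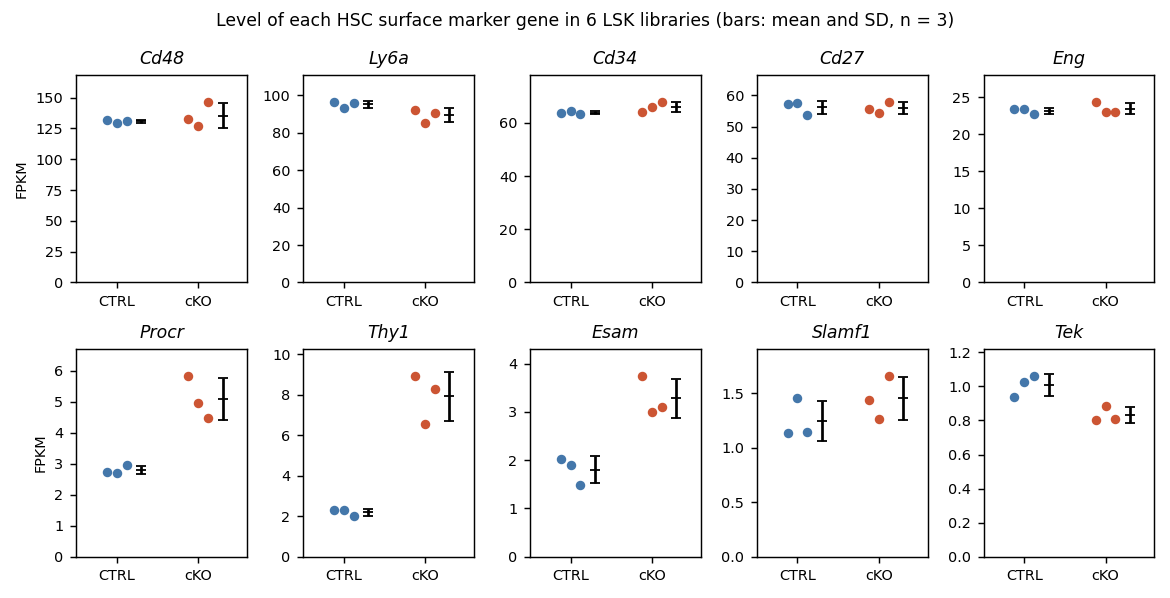
FPKM of each gene (vertical axes, each from 0) in the 3 CTRL (blue) and 3 cKO (orange) libraries, with the mean and SD of each group in black, ordered by CTRL mean from Cd48 to Tek. The groups are apart for Procr, Thy1 and Esam, with cKO above, and for Ly6a and Tek, with cKO below, and overlap for the other 5 genes.

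Thy1 (ENSMUSG00000032011, chr9:44043384-44048579, + strand, mm10) encodes a small GPI-anchored glycoprotein of HSCs, T cells, neurons and fibroblasts. It was at 2.32, 2.29 and 2.001 FPKM in the CTRL libraries and at 8.93, 6.57 and 8.29 FPKM in the cKO libraries. All 3 cKO values were far above the CTRL values, and cKO replicate 2 was the lowest of them. The mean rose from 2.20 ± 0.176 to 7.93 ± 1.22 FPKM (SD, n = 3), a ratio of 3.60. On the log2(FPKM + 1) scale, which understates the change of low genes, the difference was 1.47 (SE 0.11, 95% interval 1.22 to 1.72, limma adjusted p = 0.000129). Among the 9 genes only Thy1 was called with a rise of more than 2-fold, as were 1.39% of all genes tested. None of the 9 fell by more than 2-fold, as 0.693% of all genes tested did. Its change was larger in size than that of 99.2% of all genes tested. The values rest on 115 to 501 reads per library.

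T cells also carry Thy1, and a list of 16 T cell genes was measured beside it. The summed level of the list was 20.1 to 20.7 FPKM in CTRL and 34.7 to 39.0 FPKM in cKO. Of its 5 genes that were tested, 3 were called higher and 0 lower, and with voom on genes averaging 10 reads or more 10 were called higher. That filter took the mean over both groups, so genes near 0 in CTRL, such as Cd3d and Cd3g, entered through their cKO reads alone. The count of 10 is therefore no separate support for a rise. The most abundant were the signalling genes Lat, which rose from 9.24 to 14.4 FPKM (log2 fold change 0.58, limma adjusted p = 0.00043), and Lck, which rose from 3.44 to 5.12 FPKM (0.44, adjusted p = 0.033). The T cell receptor constant gene Trbc2 rose from 1.22 to 6.13 FPKM (1.69, adjusted p = 1.7e-05). Lck lost its call without any single CTRL library (adjusted p = 0.0842, 0.0764 and 0.0869) and without cKO replicate 3 (adjusted p = 0.0719), and also with no filter on low values (adjusted p = 0.0889) and with no moderation of the variance (adjusted p = 0.109). The chains of CD3, which define T cells, were at or near 0 in CTRL and measurable in cKO. Cd3e had 0 reads in each CTRL library and 14, 21 and 18 reads in the cKO libraries, Cd3d had 2 to 9 and 44 to 54 reads, and Cd3g had 1 to 4 and 35 to 49 reads. The coreceptor gene Cd4 had 22 to 27 reads in CTRL and 53 to 67 in cKO, and the receptor gene Trac 1 to 4 and 15 to 19, while Cd8a and Cd8b1 had at most 2 reads in any library. Every cKO library was above every CTRL library for Cd3e, Cd3d, Cd3g, Cd4 and Trac, an order seen in 25.5% of all genes tested. Cd3d reached 1.29 to 1.63 FPKM in cKO. The part of T cells in the Thy1 difference was not tested.

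Procr (ENSMUSG00000027611, chr2:155751117-155755471, + strand, mm10) encodes the endothelial protein C receptor, EPCR, which binds protein C and marks HSCs with long-term activity. It was at 2.75, 2.71 and 2.95 FPKM in CTRL and at 5.84, 4.97 and 4.47 FPKM in cKO. The groups did not overlap, and cKO replicate 1 was the highest. The mean rose from 2.80 ± 0.129 to 5.09 ± 0.691 FPKM (SD, n = 3), a ratio of 1.82. The log2 difference was 0.67 (SE 0.087, 95% interval 0.47 to 0.88, limma adjusted p = 0.00145), larger in size than that of 95.03% of all genes tested. The 6 values rest on 97 to 222 reads.

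Esam (ENSMUSG00000001946, chr9:37528078-37538319, + strand, mm10) encodes an adhesion molecule of endothelial cells, platelets and HSCs. It was at 2.02, 1.90 and 1.49 FPKM in CTRL and at 3.74, 3.003 and 3.09 FPKM in cKO. The lowest cKO value was well above the highest CTRL value. The mean rose from 1.80 ± 0.277 to 3.28 ± 0.404 FPKM (SD, n = 3), a ratio of 1.82, as for Procr. The log2 difference was 0.61 (SE 0.10, 95% interval 0.37 to 0.86, limma adjusted p = 0.00406), larger in size than that of 94.0% of all genes tested. Esam rested on the fewest reads of the 3 genes called, 82 to 201 per library.

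Slamf1 (ENSMUSG00000015316, chr1:171767127-171801184, + strand, mm10) encodes CD150, the SLAM family receptor on which most HSC sorts rest. It was at 1.14, 1.46 and 1.14 FPKM in CTRL and at 1.44, 1.27 and 1.66 FPKM in cKO. The groups overlapped, since CTRL replicate 2 was above 2 of the cKO libraries. The means were 1.24 ± 0.183 and 1.45 ± 0.197 FPKM (SD, n = 3), and the log2 difference of 0.13 was not called (95% interval -0.10 to 0.36, limma adjusted p = 0.334). With 135 to 190 reads per library, the interval still holds a rise of 1.28-fold and a fall to 0.931 of the CTRL level on the log2(FPKM + 1) scale.

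Eng (ENSMUSG00000026814, chr2:32646595-32682669, + strand, mm10) encodes endoglin, a coreceptor for TGF-beta and BMP ligands. It was at 23.3, 23.4 and 22.7 FPKM in CTRL and at 24.4, 23.0 and 23.0 FPKM in cKO. The cKO values lay among the CTRL values except for cKO replicate 1, which was the highest of all. The means were 23.2 ± 0.386 and 23.5 ± 0.802 FPKM (SD, n = 3), and the log2 difference was 0.017 (95% interval -0.066 to 0.10, limma adjusted p = 0.723). Eng overlaps Fpgs, a gene on the opposite strand at 17.9 to 24.9 FPKM, and whether strand was used in counting is not given in the sources used here.

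Tek (ENSMUSG00000006386, chr4:94739289-94874976, + strand, mm10) encodes TIE2, the angiopoietin receptor through which niche signals hold HSCs quiescent. It was the lowest of the 10 genes, at 0.939, 1.02 and 1.06 FPKM in CTRL and at 0.805, 0.885 and 0.810 FPKM in cKO. Every cKO library was below every CTRL library. The means were 1.01 ± 0.0626 and 0.833 ± 0.0448 FPKM (SD, n = 3), and with a mean under 1 FPKM over the 6 libraries Tek was not tested. Without the filter on low values, the log2 difference was -0.13 and was not called (limma adjusted p = 0.266). With voom on recovered reads, for genes averaging 10 reads or more, it was -0.25 (adjusted p = 0.271). Tek had 71 to 96 reads per library, the fewest of the 10 genes.

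Promoter sequences of 7 of the 10 genes were matched by symbol in RefSeq (GRCm38.p6), as the 250 bases before the annotated start, and 3 are shown. Procr is shown because it is the gene called higher that has an entry, and Eng (not called) and Tek (not tested) because they too are known from endothelial cells and stand beside it for comparison. Capitals mark matches on either strand to 6 searched motifs: the ETS core GGAA, the GATA motif AGATAA, the RUNX motif TGTGGT, the AP-1 motif TGACTCA, the GC box GGGCGG and the E-box CACGTG, none of which overlapped another here. The windows are chr2:155750967-155751216 for Procr, chr2:32646345-32646594 for Eng and chr4:94739039-94739288 for Tek, all on the + strand. The Procr window runs past the gene start given above (155751117), which differs from the RefSeq start. Its last marked ETS core thus lies inside the gene by the positions given above.
Procr: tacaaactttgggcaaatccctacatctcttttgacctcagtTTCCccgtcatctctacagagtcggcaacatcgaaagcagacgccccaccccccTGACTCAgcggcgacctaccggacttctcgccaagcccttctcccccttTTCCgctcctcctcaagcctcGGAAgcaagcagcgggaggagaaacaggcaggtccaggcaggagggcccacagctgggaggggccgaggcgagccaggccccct
Eng: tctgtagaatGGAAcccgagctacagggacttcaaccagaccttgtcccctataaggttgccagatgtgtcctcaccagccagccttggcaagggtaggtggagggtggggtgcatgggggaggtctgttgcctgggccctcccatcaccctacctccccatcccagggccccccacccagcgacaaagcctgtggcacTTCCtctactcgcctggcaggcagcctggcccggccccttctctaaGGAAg
Tek: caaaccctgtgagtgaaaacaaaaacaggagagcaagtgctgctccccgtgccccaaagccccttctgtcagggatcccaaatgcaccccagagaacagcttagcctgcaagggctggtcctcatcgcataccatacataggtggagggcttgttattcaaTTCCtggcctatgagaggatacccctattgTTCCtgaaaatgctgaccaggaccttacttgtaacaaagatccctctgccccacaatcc

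The Procr window held 3 ETS cores and 1 AP-1 motif, the Eng window 3 ETS cores and the Tek window 2 ETS cores. Among the 7 genes with an entry, the AP-1 motif was found in Procr alone, and 4.46% of the 32851 mouse promoters of the same length hold it. The ETS core was in each of the 7 windows, as in 93.45% of all promoters. The RUNX motif was found in Cd48 alone (14.1% of all promoters), and the GATA motif (9.99%), the GC box (32.7%) and the E-box (6.02%) in none of the 7. The windows of Procr and Eng were rich in G and C, at 61.6% and 62.4%, against a median of 52.4% over all promoters and 51.2% in Tek.

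Ly6a (ENSMUSG00000075602, chr15:74994877-74998031, - strand, mm10) encodes Sca1, the GPI-anchored protein that defines the S of LSK and that interferon induces in BM cells. Since every cell was sorted for Sca1 protein, its mRNA was compared within a gate set on its product. It was at 96.7, 93.2 and 96.2 FPKM in CTRL and at 92.3, 85.4 and 90.8 FPKM in cKO. Every cKO library was below every CTRL library, an order seen in 28.5% of all genes tested. The mean was 95.4 ± 1.87 FPKM in CTRL and 89.5 ± 3.63 FPKM in cKO (SD, n = 3), and the log2 difference of -0.092 was not called (SE 0.036, 95% interval -0.18 to -0.0063, limma adjusted p = 0.0833). The call depended on scaling: Ly6a was called lower after quantile normalization (-0.12, adjusted p = 0.0233), after rescaling to TPM (-0.11, adjusted p = 0.0293) and after removal of the GC and length trends (-0.19, adjusted p = 0.0043). Of 1311 windows of 75 bases in its transcripts, 83 also occur in Ly6c1 or Ly6i, both at 5.93 FPKM or less.

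Cd48 (ENSMUSG00000015355, chr1:171682009-171705258, + strand, mm10) encodes the ligand of CD244 and CD2, a SLAM family protein gained by multipotent progenitors, and lies beside Slamf1. It was the most abundant of the 10 genes, at 132, 129 and 131 FPKM in CTRL and at 132, 127 and 147 FPKM in cKO. The groups overlapped, and cKO replicate 3 stood above the rest. The means were 131 ± 1.40 and 135 ± 10.3 FPKM (SD, n = 3), and the log2 difference was 0.046 (95% interval -0.080 to 0.17, limma adjusted p = 0.526). Without cKO replicate 3, it was -0.014.

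Cd34 (ENSMUSG00000016494, chr1:194938819-194961279, + strand, mm10) encodes a sialomucin that HSCs of adult mice lack and their progeny carry. It was at 63.7, 64.4 and 63.3 FPKM in CTRL and at 64.2, 65.8 and 68.0 FPKM in cKO. The cKO values were on the whole slightly higher, with cKO replicate 1 inside the CTRL range. The means were 63.8 ± 0.557 and 66.0 ± 1.90 FPKM (SD, n = 3), and the log2 difference was 0.048 (95% interval -0.021 to 0.12, limma adjusted p = 0.232). It was called higher only after removal of the GC and length trends (0.11, adjusted p = 0.0191). It overlaps Gm16897, an antisense gene at 0.989 to 1.49 FPKM.

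Cd27 (ENSMUSG00000030336, chr6:125232622-125237010, - strand, mm10) encodes a receptor of the TNF receptor family, found on most LSK cells. It was at 57.3, 57.4 and 53.8 FPKM in CTRL and at 55.5, 54.2 and 58.0 FPKM in cKO. The groups overlapped throughout. The means were 56.2 ± 2.08 and 55.9 ± 1.91 FPKM (SD, n = 3), and the log2 difference was -0.0066 (95% interval -0.10 to 0.087, limma adjusted p = 0.909). Cd27 overlaps Vamp1, a gene on the opposite strand at 1.67 to 2.43 FPKM.

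The levels of the 10 genes, which FPKM scales by gene length, fell in nearly the same order in both groups. In CTRL they ran from Cd48 through Ly6a, Cd34, Cd27, Eng, Procr, Thy1, Esam and Slamf1 down to Tek, and the highest mean was 129.7 times the lowest. Only Thy1 and Esam, neighbours in this order, had overlapping values between their libraries. In cKO, Thy1 moved above Procr, no neighbours overlapped, and the highest mean was 162.4 times the lowest. The sum of the 10 levels was 378.4 FPKM in CTRL and 388.7 FPKM in cKO. Cd48, Ly6a, Cd34 and Cd27 made up 91.5% of this sum in CTRL and 89.2% in cKO, and Thy1, Procr and Esam 1.80% and 4.19%.

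A ratio of 2 genes within a library does not depend on the scaling of that library. The ratio of Thy1 to Cd48 was 0.0176, 0.0177 and 0.0152 in CTRL and 0.0675, 0.0519 and 0.0565 in cKO. The ratio of Procr to Cd48 was 0.0208, 0.0210 and 0.0225 in CTRL and 0.0441, 0.0392 and 0.0305 in cKO, and that of Esam to Cd48 had means of 0.0138 ± 0.00213 and 0.0244 ± 0.00365 (SD, n = 3). All 3 ratios were higher in every cKO library than in any CTRL library. This restates the order of Thy1, Procr and Esam themselves, since Cd48 differed little between the groups. For Slamf1 to Cd48, the marker pair most used to separate HSCs from progenitors, the means were 0.00953 ± 0.00151 and 0.0107 ± 0.000675, which differed by less than the spread among CTRL libraries. The plot of all genes tested shows how the changes of the members compare with those of other genes of the same level.

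**Figure D2:**
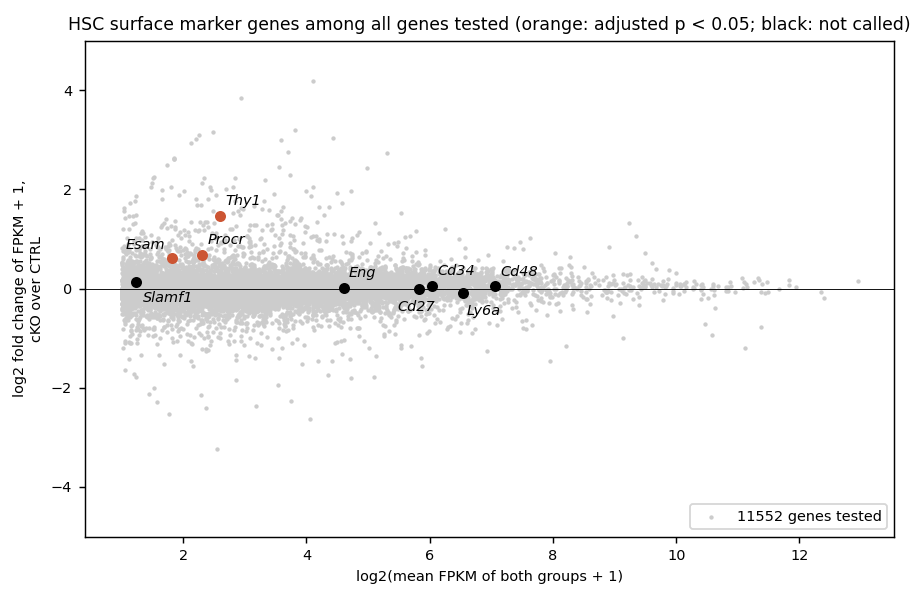
Log2 fold change of FPKM + 1, cKO over CTRL (vertical axis), against log2 of the mean FPKM of both groups + 1 (horizontal axis) for 11552 genes tested (grey), with the 9 surface marker genes tested in orange (adjusted p under 0.05) or black (not called). Thy1 at 1.47 is near the upper edge of the cloud, Procr and Esam are lower within it, and the other 6 genes lie close to 0.

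Other surface proteins used to divide LSK cells and their neighbours were measured as a list of 32 genes. Of these, 24 were tested, 10 were called higher and 7 lower, and the median log2 fold change was 0.037. Itga2b, the CD41 integrin of platelets and of megakaryocyte-biased HSCs, rose from 17.0 ± 0.524 to 37.3 ± 0.470 FPKM (log2 fold change 1.09, limma adjusted p = 4.5e-06). Flt3, which marks lymphoid-primed progenitors and is low in HSCs, rose from 19.8 ± 0.780 to 30.1 ± 1.18 FPKM (0.58, adjusted p = 0.000147). So markers of HSCs and of progenitors were both among those that rose. The largest falls were in the Fc receptor Fcgr3 (70.3 to 31.3 FPKM, log2 fold change -1.15) and the early progenitor marker Cd93 (27.4 to 16.1 FPKM, -0.73). The plot of fold changes shows the 9 genes tested beside this list.

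**Figure D3:**
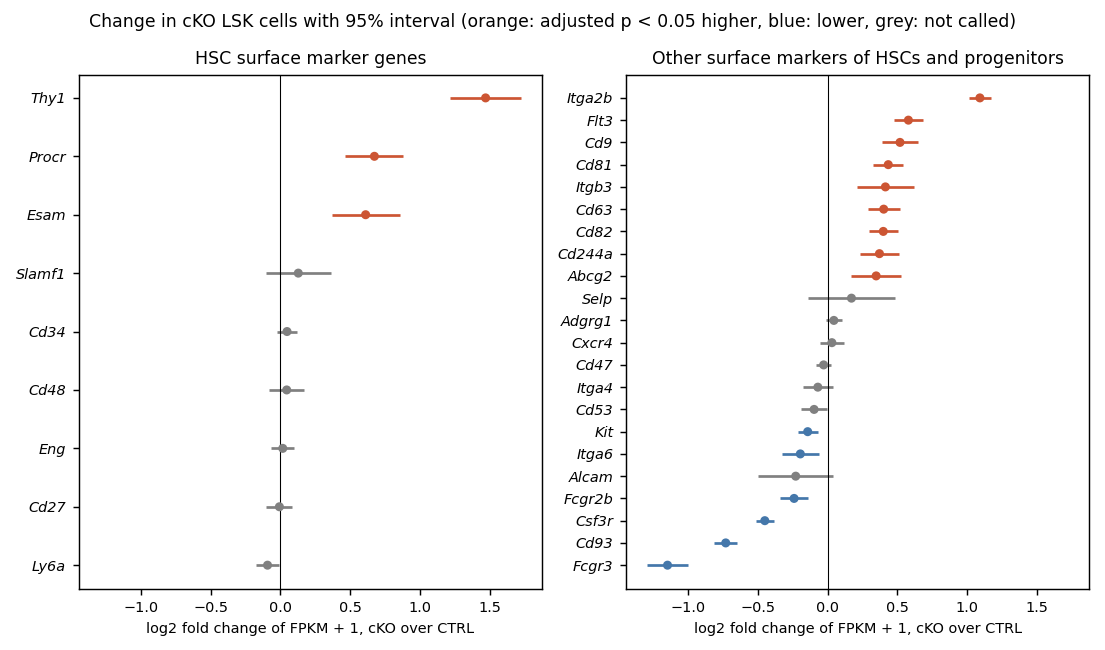
Log2 fold change of FPKM + 1, cKO over CTRL (horizontal axis), with its 95% interval from limma, for the 9 HSC surface marker genes tested (left) and 22 of the 24 tested genes of the list of other surface markers (right), orange where called higher, blue where called lower and grey where not called. Thy1, Procr and Esam are the 3 called on the left, and 9 called higher and 6 called lower are drawn on the right.

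Few relatives of the members were tested, and their counts were not compared with each other. Over all genes tested, 19.9% were called higher and 20.6% lower. Of 11 genes of the SLAM family and its signalling partners, 5 were tested and 1 was called: Cd244a, the receptor of CD48, rose from 3.30 ± 0.107 to 4.56 ± 0.325 FPKM (log2 fold change 0.37, limma adjusted p = 0.0034). Of 17 genes of the Ly6 family besides Ly6a that were in the table, 7 were tested, with 1 called higher and 3 lower. Ly6c2, which marks monocytes and their precursors, fell from 361 to 131 FPKM (-1.45), Ly6e fell from 430 to 349 FPKM (-0.30), and Ly6i was the third called lower. Cd59a, an inhibitor of complement, rose from 6.22 to 14.3 FPKM (1.08).

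Ligands, partners and coreceptors of the members were taken as a list of 35 genes. Of 19 tested, 7 were called higher and 3 lower, and their log2 fold changes had a median of 0.044. Thbd, thrombomodulin, which acts with EPCR to activate protein C, fell from 3.29 ± 0.132 to 1.34 ± 0.278 FPKM (-0.88, limma adjusted p = 0.000666), opposite to Procr. Tgfbr1 was also called lower. F11r, an adhesion molecule of the immunoglobulin superfamily like ESAM, rose from 2.22 ± 0.405 to 3.92 ± 0.332 FPKM (0.62, adjusted p = 0.00425). Angpt1, the ligand of TIE2, rose from 15.6 to 19.3 FPKM (0.29, adjusted p = 0.000592), and Tie1, the partner of TIE2, from 5.29 to 6.94 FPKM (0.33, adjusted p = 0.00361). Both were named after their values were seen. Proc, the gene of protein C, had 0 reads and Cd70, the gene of the CD27 ligand, at most 1 read in any library.

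THY1, Sca1 and CD48 are held in the membrane by a GPI anchor. Of 28 genes for making and attaching this anchor, 25 were tested, with 6 called higher, 4 called lower and 0.0099 as the median of their log2 fold changes. Pigp (0.41), Pigf (0.37) and Pigx (0.32) had the largest rises and Mppe1 (-0.49), Pigv (-0.26) and Pigs (-0.21) the largest falls among genes with at least 3 FPKM in either group. Pign, below that level, was also called lower (-0.23), and Pigf lost its call under several alternatives. The list held calls in both directions, near the shares over all genes tested (19.9% higher and 20.6% lower). Of the 3 genes whose proteins carry the anchor, Thy1 was called higher and Ly6a and Cd48 were not called.

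Genes enriched in HSCs that encode proteins inside the cell were at low levels, and 8 of 19 were tested. Of these, 4 were called higher and 0 lower, and the median log2 fold change was 0.28. The transglutaminase gene Tgm2 rose from 1.67 ± 0.289 to 3.68 ± 0.197 FPKM (0.82, limma adjusted p = 0.000729). Hlf, a transcription factor of HSCs, rose from 3.73 ± 0.402 to 5.16 ± 0.469 FPKM (0.38, adjusted p = 0.0125), a call lost without moderation of the variance (adjusted p = 0.0507). Tcf15 and Sult1a1 were the others called higher. Sult1a1, at 0.804 FPKM in CTRL and 2.24 FPKM in cKO, passed the filter of 1 FPKM only through its cKO level. The count depended on the filter, with 0 called higher where a mean of 5 FPKM was required and 10 higher and 1 lower with voom on genes averaging 10 reads or more. Each filter took the mean over both groups, so a low gene could enter through a single group.

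Interferon induces Ly6a, and poly I:C, given to both groups, induces interferon. Of 30 interferon-stimulated genes, 27 were tested, with 17 called lower and 1 higher in cKO, and their median log2 fold change was -0.26. Ifi27l2a (-0.69), Trim30a (-0.55) and Gbp3 (-0.40) fell the most among those at 3 FPKM or more, and Isg20 rose (0.35). The list held Ly6e, which is also counted in the Ly6 family above. Ly6a, at -0.092, moved less than the median of this list.

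Markers of other cell types moved with the groups too. Erythroid genes were called higher in 10 of 10 tested, with a summed level of 567.2 to 573.7 FPKM in CTRL and 999.8 to 1041 FPKM in cKO, led by the carbonic anhydrases Car1 and Car2. Megakaryocyte genes were higher in 7 of 7 (78.4 to 83.5 and 157.8 to 161.8 FPKM), led by Pf4 and Itga2b, and mast cell and basophil genes in 6 of 8 (143.2 to 154.9 and 206.3 to 215.1 FPKM), led by Cpa3 and Gata2. Of 9 monocyte and macrophage genes tested, 6 were called lower and 3 higher (646.0 to 681.2 and 304.1 to 322.3 FPKM), with Ly6c2 and Lyz2 the most abundant. The 3 that rose were the complement genes C1qa, C1qb and C1qc of macrophages.

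Endothelial cells carry Procr, Esam, Eng and Tek, and platelets carry Esam. Of 16 endothelial genes, 5 were tested, with 2 called higher and 2 lower, and the summed level of the list was 75.1 to 78.7 FPKM in CTRL and 79.9 to 82.7 FPKM in cKO. By the mean over all libraries of both groups, the most abundant were Egfl7 and Erg. Egfl7 rose from 17.7 to 30.2 FPKM, and Erg, which blood progenitors express too, was at 28.4 and 26.7 FPKM and not called (adjusted p = 0.056). Tie1 was also called higher, and Pecam1 and Plvap were called lower. Of the genes that define endothelium, VE-cadherin, Cdh5, had 0 to 7 reads, Kdr 3 to 12 reads, Cldn5 1 to 13 reads, Sox17 0 to 1 read and Lyve1 0 reads in any library. Emcn, which HSCs also carry, had 51 to 53 reads in CTRL and 87 to 131 in cKO, with every cKO library above every CTRL library, and Robo4 had 70 to 85 and 77 to 120 reads, which overlapped. Both averaged under 1 FPKM and were not tested. Stromal genes, B and plasma cell genes and NK cell genes had 0 of 1, 3 of 6 and 1 of 2 tested genes called higher, and 0, 2 and 1 called lower. Their most abundant genes were Pdgfrb and Acta2, Xbp1 and Jchain, and Nkg7 and Klrd1. The part of these cell types in the changes of Thy1, Procr and Esam was not tested.

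**Figure D4:**
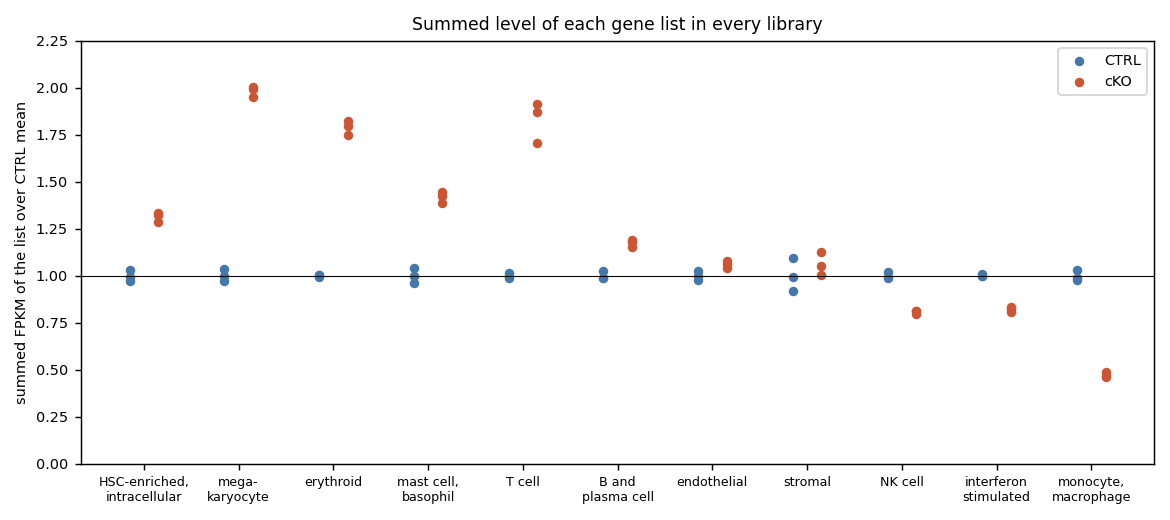
Summed FPKM of each gene list in every library, divided by the mean of the CTRL libraries (vertical axis), for 11 lists (horizontal axis), with CTRL in blue and cKO in orange. Megakaryocyte, erythroid and T cell lists are highest in cKO and the monocyte and macrophage list lowest, while the stromal list overlaps between the groups.

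The genes most like Thy1 across the 6 libraries, out of 7448 with at least 5 FPKM in either group, were Mir17hg, Igkv3-2 and Swi5 (Pearson's r of log2(FPKM + 1) 0.998 each), and 1326 of the genes searched had an r over 0.9 with Thy1. Those most like Ly6a, the member with the largest fall among those tested, were Snapc5 (0.988), S100a13 (0.986) and Chmp1b (0.983), and 123 had an r over 0.9 with Ly6a. The 6 points of each pair share their libraries and fall into the 2 groups.

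The 3 calls held under each setting that left the gene in the test and set no limit on the fold. Over 19 alternatives with a test, Thy1 ran from 1.39 to 1.86 on the log2 scale with an adjusted p of at most 0.00505. Over 18, Procr ran from 0.59 to 0.87 with an adjusted p of at most 0.0149, and Esam from 0.53 to 0.89 with an adjusted p of at most 0.0259. Leaving out single libraries gave the lowest values of all 3. Voom on recovered reads, which adds no pseudocount of 1 FPKM, gave the highest. The plot of settings shows these 3 genes with Ly6a.

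**Figure D5:**
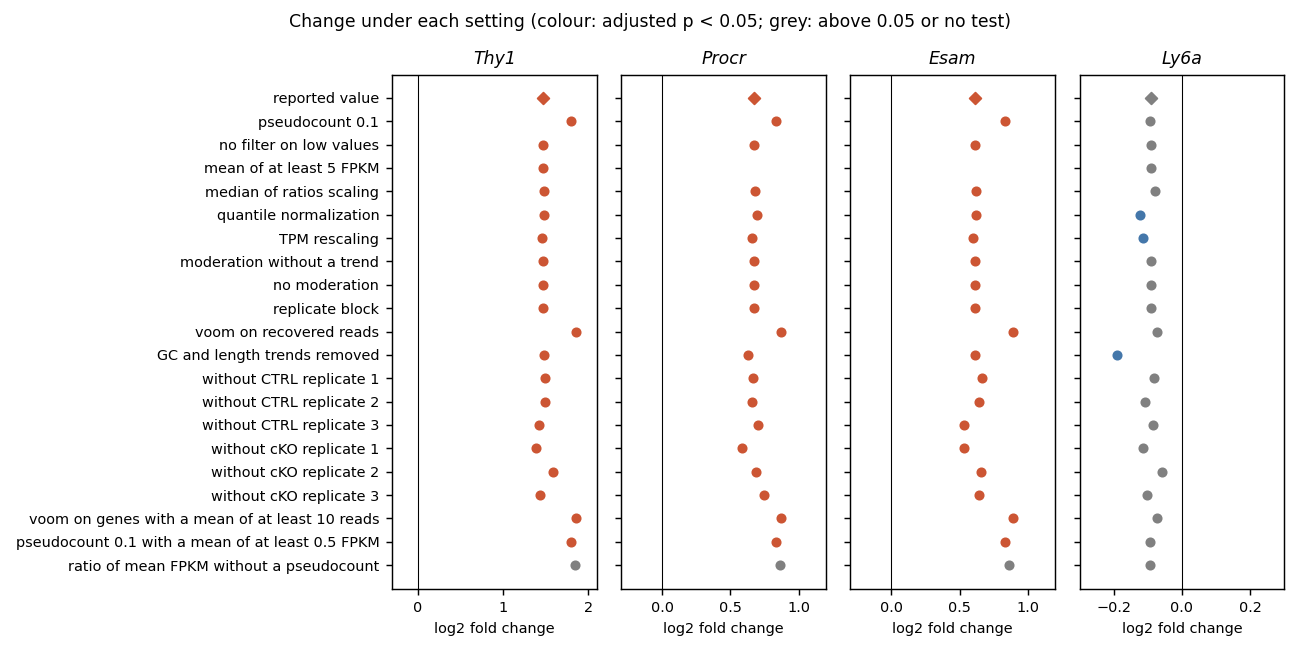
Log2 fold change, cKO over CTRL (horizontal axes, each gene with its own range), of Thy1, Procr, Esam and Ly6a under the reported setting (diamond) and each alternative (circles), in orange or blue where the adjusted p was under 0.05 and grey where it was not or where no test was made. Thy1, Procr and Esam are above 0 under all settings drawn, and Ly6a is below 0 under all and called under 3.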

How the data were processed

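RNA-seq of 6 LSK samples was analysed from the processed values. The authors deposited FPKM values, scaled for the length of a gene and the size of a library, for 54532 genes with gene lengths. The submitters' processing notes name HISAT2 2.0.5 and mm10, and the counting program and annotation are not given in the sources used here. Libraries were made from 1 µg of RNA with a TruSeq kit. Of the gene identifiers, 54495 are in GENCODE M21, and all 10 members have the same position there.

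Groups and replicate numbers came from the sample titles. FPKM times gene length gave whole reads (within 0.02 read), which were used for depth and in voom, since the main unit is FPKM. Read numbers carry counting error only. Genes averaging 1 FPKM or more (11552) were tested on log2(FPKM + 1) by the linear model of limma 3.58.1 in R 4.3.3, with variances moderated along a trend. All tests were two-sided, and Benjamini-Hochberg adjustment covered these genes. A permutation test of 3 against 3 libraries cannot give a p below 0.1 and was not used. The script was tested on simulated data.

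The members and all gene lists were chosen with earlier results of these data known. Genes named are the members, Myh9, Kit, Flt3, up to 3 genes called in each direction in a list (at least 3 FPKM in either group, groups not overlapping, largest changes), the 2 most abundant genes of a cell type list, and the 3 genes most like Thy1 and Ly6a. Genes that complete a short count (Trbc2, Ly6i, Tgfbr1, Pign, Tcf15, Sult1a1, Pecam1, Plvap and the C1q genes), Angpt1 and Tie1 were added with their values known, and reads of defining cell type markers are given for their level alone. Some genes of the lists are counted but not reported here by name. Alternatives were another pseudocount, other filters on low values, other scalings, no moderation or no trend, a replicate block, each library left out, voom, removal of GC and length trends, a 2-fold limit and ratios of means; voom on genes averaging 10 reads or more, and a pseudocount of 0.1 with a filter at 0.5 FPKM, were added after seeing the data. Promoters came from RefSeq (GRCm38.p6). Tables and plots used the data.table package (1.17.8), and pandas 2.3.3, numpy 2.4.6 and matplotlib 3.10.9 under Python 3.11.15.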

Additional observations from a re-analysis of the deposited data

How the results depend on the processing

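The count of 3 genes called higher was 1 with a mean of at least 5 FPKM, which left Procr and Esam untested, and 1 (Thy1) when a change of more than 2-fold was also asked for. It was 4 after removal of the GC and length trends, with Cd34 added. The count of 0 called lower was 1 (Ly6a) after quantile normalization, after TPM rescaling and after removal of the GC and length trends; at an unadjusted p under 0.05, Ly6a (0.0388) was the only member lower in the reported fit. Genes not called changed sign near 0: Cd27 was 0.0056 with median of ratios scaling, 0.014 with voom at either filter, and 0.0081, 0.0093 and 0.015 without CTRL replicate 1, CTRL replicate 2 and cKO replicate 2. Cd48 was -0.0061 after quantile normalization, -0.040 after removal of the GC and length trends and -0.014 without cKO replicate 3. Eng was -0.0030 after TPM rescaling and -0.0096 without cKO replicate 1, and Pdgfrb was -0.020 without CTRL replicate 2. With each library left out in turn, Cd27 ranged from -0.037 to 0.015, Cd48 from -0.014 to 0.091, Eng from -0.0096 to 0.031 and Pdgfrb from -0.020 to 0.10. The causes were not tested.

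Replicate numbers in the titles did not pair the samples: deviations of same-numbered libraries from their group means correlated at -0.0046, -0.011 and -0.026 across genes. With the replicate block, 3 members were called higher and 0 lower, and over all genes 2063 were called higher and 2044 lower, against 2295 and 2378 without it. Of 42 other named genes tested, 34 kept their call and direction under each alternative run, and the remaining 8 lost or gained a call or changed sign in some. Slamf1, Procr, Esam and Tek in both groups, and Thy1 in CTRL, rest on 71 to 222 reads per library, which limits the precision of their values.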
